A study of Homo sapiens with 4 samples.

Results

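The regions described here are the H3K9me3 peaks on the short arms and the near ends of the long arms of the acrocentric chromosomes 13, 14, 15, 21 and 22 of the human genome (hg38). A peak was taken when its summit lay below 22 Mb on one of these 5 chromosomes, and identical intervals were counted once. This gave 323 peaks of 4930 in all, made up of 95 of the 1165 peaks of the NC list and 228 of the 3785 peaks of the OE-KDM4A list. The cells were Ishikawa, a long-established line from an endometrial cancer. NC cells are labelled as having no treatment, and the other cells carry the treatment label OE-KDM4A, which the labels do not spell out further. H3K9me3 ChIP-seq was made with 1 ChIP and 1 input library per condition, so every comparison between conditions sets 1 library beside 1 library. No p-value is given for such a comparison. The 95% intervals below are exact for counts. They hold counting error alone, without the variation between cultures. Each peak is counted as independent, but many peaks lie close together, so the intervals can be too narrow. Library depth is unknown.

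The short arms of the acrocentric chromosomes carry the ribosomal DNA arrays, tandem copies of a unit with a 45S gene and a long intergenic spacer. RNA polymerase I transcribes the 45S gene into a precursor that is cut into the 18S, 5.8S and 28S ribosomal RNAs, and its spacers are removed. Around the arrays lie satellite repeats and recent duplications shared among the 5 chromosomes, and at the near end of the long arm of chromosome 22 lie the low-copy repeats of 22q11. Trimethylated lysine 9 of histone H3 marks silenced heterochromatin and is known at satellites and at silent ribosomal DNA copies. KDM4A is a demethylase that removes this mark. In hg38 the short arms of chromosomes 13, 14 and 15 are not sequenced, and parts of those of chromosomes 21 and 22 are.

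The start windows of several FAM230 genes on chromosome 22 are near copies of each other, and 1 of them carried a peak. FAM230 is a family of long non-coding RNA genes spread through the chromosome 22 repeats, with FAM230C on chromosome 13. The only acrocentric peak that lay on a RefSeq start window (250 bases before to 50 after the listed start, GRCh38.p14) was an OE-KDM4A peak at chr22:18733688-18733805, just before FAM230E. The window of FAM230E (chr22:18733685-18733984, plus strand) is printed with the 118 bases of this peak in capitals. Below it stand the windows of FAM230F (chr22:18896715-18897014, minus strand), FAM230G (chr22:20338663-20338962, plus strand) and FAM230B (chr22:21167615-21167914, plus strand), with the stretch that best matches those bases in capitals.
FAM230E: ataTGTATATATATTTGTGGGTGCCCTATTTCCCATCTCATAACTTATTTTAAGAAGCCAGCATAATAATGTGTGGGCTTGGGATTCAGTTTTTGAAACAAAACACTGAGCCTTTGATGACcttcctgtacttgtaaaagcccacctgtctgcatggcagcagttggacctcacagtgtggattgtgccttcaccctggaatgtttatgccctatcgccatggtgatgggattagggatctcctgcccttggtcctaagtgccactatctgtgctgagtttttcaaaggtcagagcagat
FAM230F: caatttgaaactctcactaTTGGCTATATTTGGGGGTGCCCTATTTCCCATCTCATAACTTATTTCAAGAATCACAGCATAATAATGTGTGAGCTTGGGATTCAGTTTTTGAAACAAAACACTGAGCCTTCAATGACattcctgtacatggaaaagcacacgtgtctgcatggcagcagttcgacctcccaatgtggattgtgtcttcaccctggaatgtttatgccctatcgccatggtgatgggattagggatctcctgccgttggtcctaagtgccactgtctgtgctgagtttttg
FAM230G: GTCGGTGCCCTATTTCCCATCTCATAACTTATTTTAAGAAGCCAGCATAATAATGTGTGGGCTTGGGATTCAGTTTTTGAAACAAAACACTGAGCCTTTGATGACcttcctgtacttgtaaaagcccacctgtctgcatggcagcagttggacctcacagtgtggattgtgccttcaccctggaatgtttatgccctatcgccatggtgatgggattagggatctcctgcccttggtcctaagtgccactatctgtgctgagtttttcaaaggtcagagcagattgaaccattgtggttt
FAM230B: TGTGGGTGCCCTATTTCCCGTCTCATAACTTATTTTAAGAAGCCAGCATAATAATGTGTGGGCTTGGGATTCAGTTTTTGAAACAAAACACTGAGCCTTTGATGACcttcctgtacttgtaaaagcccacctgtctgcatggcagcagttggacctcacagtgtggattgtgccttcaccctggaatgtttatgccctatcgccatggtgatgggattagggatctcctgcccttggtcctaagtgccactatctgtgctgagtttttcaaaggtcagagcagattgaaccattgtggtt
The peak bases were 90.7% identical in FAM230F, 88.1% in FAM230G and 89.0% in FAM230B. Peak bases without a partner inside a window counted as differences. The capitals of FAM230G and FAM230B begin at the first base of their windows, so their values are lower limits. They do not show which copy is closest. From GGTGCCC to GATGAC the bases of FAM230G were the same as those of FAM230E, and those of FAM230B nearly so. Of 35116 start windows, the best match outside the family was FAM153A on chromosome 5, at 65.3% identity. The FAM230C window on chromosome 13 matched at 47.5%. The peak bases held 36.4% G or C, while the median of all start windows was 58.7%. FAM230G and FAM230B lie below the 22 Mb limit too and had no peak of either list within 5 kb of their starts. The sources used here do not say how reads that match several copies were placed, so a peak on one copy can hold reads from another.

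A second set of sequences belongs to microRNAs that lie within the 45S unit or in a copy of part of it on chromosome 21. They are printed as mature RNAs from RefSeq (GRCh38.p14), with the seed, bases 2 to 8, in capitals.
hsa-miR-6724-5p: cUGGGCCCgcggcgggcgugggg
hsa-miR-10396b-5p: cGGCGGGGcucggagccggg
hsa-miR-10396b-3p: gGCCCCGGgcccucgaccggac
hsa-miR-10396a-3p: gGCCCCGGgcccucgaccggg
The 3p arms of miR-10396a and miR-10396b share their seed. MIR10396B lies inside the 5′ external transcribed spacer of RNA45SN1, the leader of the 45S precursor, and its 5p arm lay 401 bp from the nearest NC peak and 4748 bp from the nearest OE-KDM4A peak. The mature miR-6724-5p of MIR6724-4, just before the start of RNA45SN1, lay 1528 bp from the nearest NC peak. For miR-10396a-3p, further along the chromosome, the nearest NC peak was 3355 bp away and the nearest OE-KDM4A peak 13269 bp away. None of the 35 microRNA genes below 22 Mb had a peak within its own span in either list. Of all 1012 genes there, 17 had an NC peak and 26 an OE-KDM4A peak in their span. At these shares the lack of peaks shows nothing about the microRNA genes.

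The acrocentric peaks were 8.15% of the NC list (95% interval 6.65 to 9.88) and 6.02% of the OE-KDM4A list (5.29 to 6.83). There were thus 2.40 OE-KDM4A peaks per NC peak (1.88 to 3.08). The ratio was 3.25 over all peaks (3.04 to 3.47), 1.94 on the rest of the same 5 chromosomes (1.53 to 2.46, from 110 NC and 213 OE-KDM4A peaks) and 2.71 within 5 Mb of the longest gene-free stretch of chromosomes 1, 9 and 16 (2.105 to 3.529). The interval of the acrocentric ratio overlapped those of all 3 comparison sets, that of all peaks only between 3.04 and 3.08. The set of all peaks contains the acrocentric ones. Overlap of intervals does not show that ratios are equal, and no difference was tested. When the OE-KDM4A list was shortened to its strongest peaks, as many as NC had, the ratio was 0.94 (0.69 to 1.26). The whole lists were then equally long. With a fold enrichment of at least 5 in both lists the acrocentric ratio was 4.75 (3.04 to 7.72). At that limit the acrocentric peaks were 6.74% of the NC list (4.37 to 9.87) and 5.71% of the OE-KDM4A list (4.73 to 6.82). The ratio over all peaks was thus above 4.75 there. Fold enrichment is the authors' linear ratio of ChIP to local background at the summit.

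Peaks were concentrated on chromosomes 21 and 22. On chromosome 21 lay 47 NC peaks, 49.5% of the 95 (39.1 to 59.9), and 123 OE-KDM4A peaks, 53.9% of the 228 (47.2 to 60.5). Chromosome 22 held 31 NC peaks (32.6%) and 78 OE-KDM4A peaks (34.2%). The order of the chromosomes was the same in both lists down to chromosome 15, which held 15 and 20 peaks. Chromosome 13 held 1 NC peak and 7 OE-KDM4A peaks, and chromosome 14 held 1 and 0. The ratio of OE-KDM4A to NC peaks was 2.62 on chromosome 21 (1.86 to 3.75) and 2.52 on chromosome 22 (1.64 to 3.95). On chromosome 15 it was 1.33 (0.65 to 2.80). These intervals overlap, and no difference between chromosomes was tested.

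**Figure D1:**
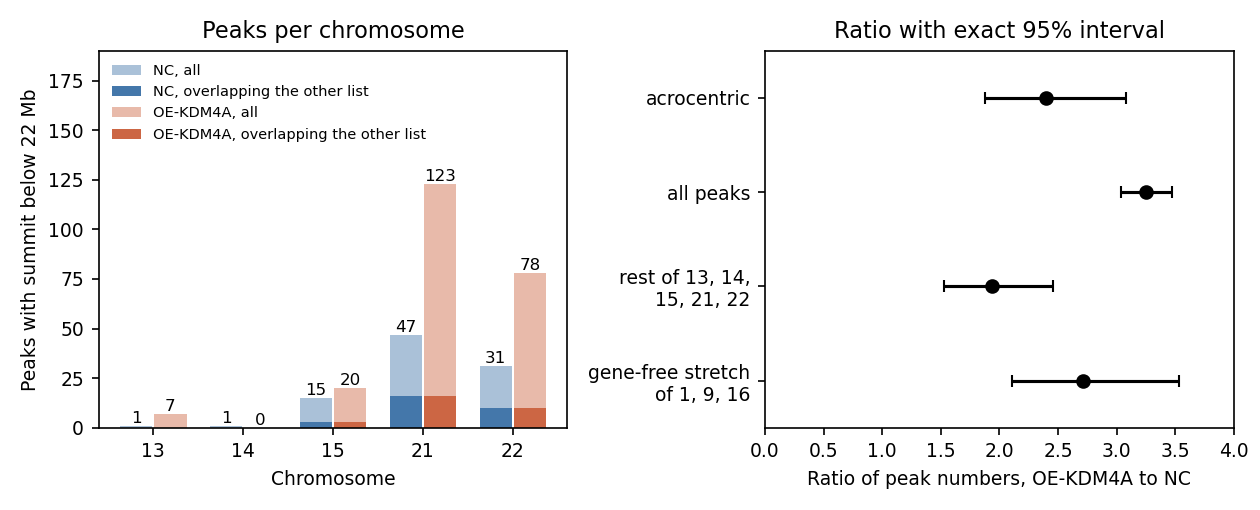
Left, number of peaks with a summit below 22 Mb on each acrocentric chromosome, with the part that overlaps a peak of the other list in the darker shade. Right, ratio of OE-KDM4A to NC peak numbers with exact 95% intervals (bars) for the acrocentric peaks and 3 comparison sets. Chromosomes 21 and 22 hold most peaks of both lists, and the acrocentric ratio of 2.40 lies between those of the rest of the same chromosomes and of all peaks.

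Within chromosome 21 the peaks lay on the short-arm side. The longest gene-free stretch below 22 Mb there, used as a marker for the centromere, runs from 10649835 to 13038166, between IGHV1OR21-1, an orphan immunoglobulin segment, and ANKRD30BP2, an ankyrin repeat pseudogene. Before this stretch lay 45 NC peaks (95.7%) and 102 OE-KDM4A peaks (82.9%), inside it 2 and 19, and beyond it 0 and 2. The peaks inside it lay close to its short-arm edge, no further than 10798256, except for the OE-KDM4A peak at chr21:12984293-12984425. On chromosome 22 the stretch runs from 12815793 to 15264489. There 22 NC and 52 OE-KDM4A peaks lay before it, 0 and 4 inside it, and 9 and 22 beyond it, towards the 22q11 repeats. All chromosome 13 and 14 peaks lay beyond 18 Mb, among annotated genes. On chromosome 15 the first listed gene, the small nuclear RNA pseudogene RNU6-978P, starts at 19883614, and 9 of the 15 NC peaks and 11 of the 20 OE-KDM4A peaks lay before it.

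By windows of 1 Mb, the one with most NC peaks was 8 to 9 Mb of chromosome 21, which holds the 45S genes. It held 23 NC peaks and 16 OE-KDM4A peaks, and of the windows with at least 10 peaks over both lists it was the only one in which NC had more. In the neighbouring window, 9 to 10 Mb, NC had 12 peaks and OE-KDM4A had 45, the most of its list. OE-KDM4A peaks were next most numerous at 10 to 11 Mb of chromosome 21 (38 against 6 in NC) and at 12 to 13 Mb of chromosome 22 (24 against 4). The windows of 10 to 11 Mb and 11 to 12 Mb on chromosome 22 held 8 and 10 NC peaks and 17 and 15 OE-KDM4A peaks. At 7 to 8 Mb of chromosome 21 there were 6 NC and 20 OE-KDM4A peaks. Just inside the 22 Mb limit, in the last megabase, there was 1 NC peak and 4 OE-KDM4A peaks, and the next megabase beyond it held the same numbers.

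In the ribosomal DNA the NC list held more peaks than the longer OE-KDM4A list. The RefSeq table places 3 copies of the 45S gene on chromosome 21, RNA45SN2 (8205988 to 8219302), RNA45SN3 (8389035 to 8402343) and RNA45SN1 (8433222 to 8446572). RNA45SN3 and RNA45SN1 start 44187 bp apart, and this length was taken as 1 unit, gene plus spacer, for each copy. A further copy, RNA45SN4, is assigned to chromosome 22 at a position that is not on the chromosome sequence used by the peaks, and it was not analysed here. In the 45S units lay 20 NC peaks, 21.1% of the 95 (13.4 to 30.6), and 10 OE-KDM4A peaks, 4.39% of the 228 (2.12 to 7.92). Over the whole lists, the same peaks were 1.72% of NC and 0.264% of OE-KDM4A. Without them the ratio of OE-KDM4A to NC peaks was 2.91 (2.23 to 3.83).

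The copies differed in how many peaks they held. How reads that match several copies were placed is not stated, so peaks counted for 1 copy can hold reads from another. RNA45SN1 held 14 NC and 8 OE-KDM4A peaks, RNA45SN2 held 5 and 0, and RNA45SN3 held 1 and 2. Within the gene spans themselves lay 6 NC peaks (6.32%, 2.35 to 13.2; 0.515% of the whole list) and 2 OE-KDM4A peaks (0.88%, 0.11 to 3.13; 0.0528% of the whole list). All 6 NC peaks in a gene span were in RNA45SN1. The remaining 14 NC and 8 OE-KDM4A peaks lay in the intergenic spacer, which holds repeats and, before the next gene, its promoter.

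The 5′ external transcribed spacer of RNA45SN1 carried 4 peaks in NC and none in OE-KDM4A. Of the 20 NC peaks in 45S units, 13 had no overlapping OE-KDM4A peak, and only 34.7% of all NC peaks had one. At these shares, 4 NC peaks without an OE-KDM4A peak show nothing particular to this spacer. The strongest was at chr21:8434090-8434251, with its summit 955 bp after the 45S start. It had a fold enrichment of 3.39 and a −log10 q of 50.5, from 238 stacked ChIP fragments over a background of 69.4. The other NC peaks there had summits 1776, 2143 and 2634 bp from the start, with folds of 3.55, 3.37 and 4.08. The NC peaks thus ran from near the 45S start towards the 18S sequence. No peak of either list had its summit in the 18S or 5.8S sequence or in the internal spacers between them.

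At the beginning of the 28S sequence of RNA45SN1 both lists had a peak. It was at chr21:8441137-8441281 in NC, with a fold of 3.77 and a −log10 q of 26.4, and at chr21:8441091-8441300 in OE-KDM4A, with a fold of 3.60 and a −log10 q of 7.91. Their summits lay 9 bp apart. NC had a further 28S peak at chr21:8443211-8443418 (fold 2.86). OE-KDM4A had a further one in the other copy, RNA45SN3, at chr21:8401607-8401750 (fold 6.43), with 13 stacked fragments over a background of 1.18.

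In the spacer of RNA45SN1, 6 places were called in both lists. The summits lay between 16791 and 33630 bp from the 45S start, and within each pair they were 1 to 48 bp apart. The strongest in NC was at chr21:8452059-8452235, with a fold of 3.79 and a −log10 q of 73.6, while OE-KDM4A had a fold of 3.42 and a −log10 q of 28.3 there. The one nearest to the gene, at chr21:8449933-8450092, had a fold of 6.62 in NC and 12.4 in OE-KDM4A. The one nearest to the pseudogene CDC27P11, at chr21:8466787-8466918, had a fold of 4.59 in NC and 13.4 in OE-KDM4A. The fold was thus higher in OE-KDM4A at both ends of the row and lower at its strongest place. At chr21:8456387-8456528 it was also higher in OE-KDM4A, 5.21 in NC and 7.02 in OE-KDM4A. At chr21:8453838-8454097 it was lower, 2.51 and 2.21, and at chr21:8455809-8455955 it was 5.91 and 4.03. NC had 2 more spacer peaks in this copy without an overlapping OE-KDM4A peak, chr21:8462020-8462179 (fold 5.63) and chr21:8465306-8465498 (fold 3.34). So the fold was higher in OE-KDM4A at some places and lower at others.

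The fold hides a common difference in the stacked fragments. From the deposited fold and −log10 p the ChIP pileup, the number of stacked ChIP fragments at the summit, and the control background were recovered. The pileup was lower in OE-KDM4A at all 7 places of the 45S units that both lists called. It was 112 in NC and 39 in OE-KDM4A at the 28S place, and 110 and 37 at the spacer place nearest to the gene. At the strongest spacer place it was 295 and 133, and next to CDC27P11 it was 74 and 27. The median ratio of OE-KDM4A to NC was 0.35 for the pileup and 0.32 for the background, and the median log2 ratio of the folds was −0.07. These pileups are not scaled to library size by a known depth, and the background was lower too, so the number of ribosomal copies, the depth and the mark per copy cannot be told apart.

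Some peaks of different copies lay at like places of the unit. The RNA45SN3 peak of OE-KDM4A at 16553 bp from its start was 238 bp from the place of the RNA45SN1 peak of the same list at 16791 bp. An NC peak of RNA45SN2, at 22759 bp, was 95 bp from the place of the NC peak of RNA45SN1 at 22664 bp. The strongest ribosomal NC peak, at chr21:8420096-8420531 in the spacer of RNA45SN3 and within the pseudogene CDC27P10, had a fold of 5.05 and a −log10 q of 74.9 and no overlapping OE-KDM4A peak. All 5 NC peaks of RNA45SN2 were in its spacer, from chr21:8219906-8220215 to chr21:8234126-8234575, and their folds ran from 2.72 to 6.22.

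**Figure D2:**
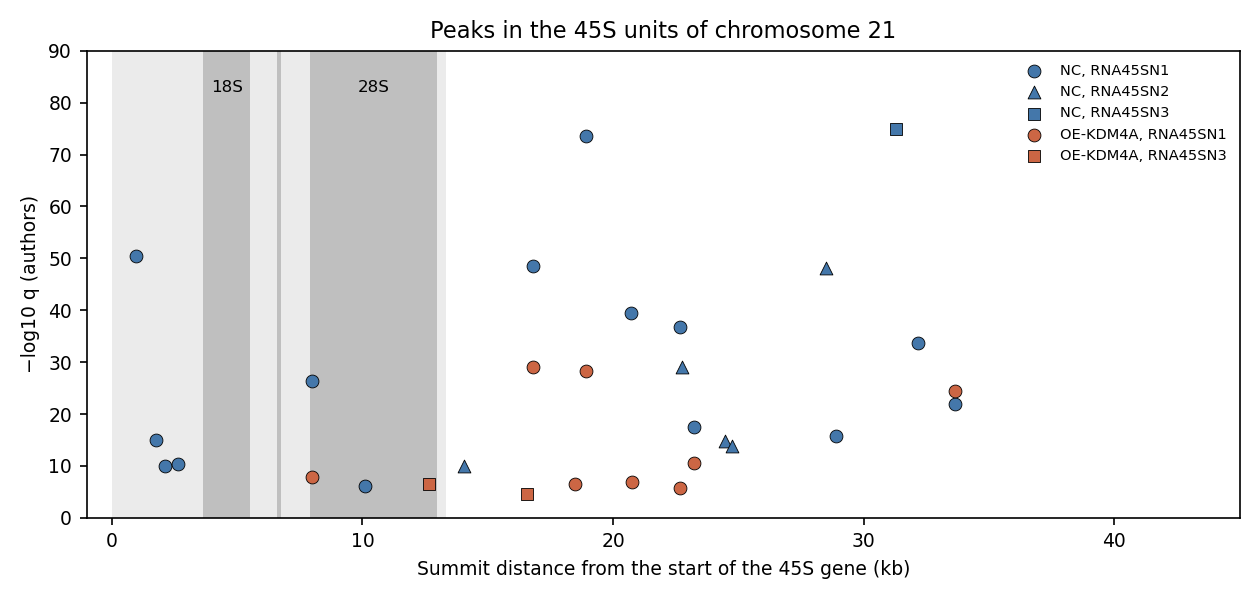
Distance of each peak summit from the start of its 45S gene (kb, horizontal) against the authors' −log10 q (vertical), with colour for the list and marker for the copy. The light band is the 45S gene and the dark bands the 18S, 5.8S and 28S sequences of RNA45SN1. The 4 peaks in the first 3 kb are NC peaks, too few to set the lists apart there. At the shared spacer places of RNA45SN1 the NC points are higher, except next to CDC27P11.

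By −log10 q, the strongest acrocentric peaks of NC were mostly ribosomal. By fold they did not stand out, as the median was 3.79 in 45S units and 3.81 over all acrocentric NC peaks. Of the 10 NC peaks with the highest −log10 q, 8 lay in a 45S unit, against 21.1% of all acrocentric NC peaks. Of the 10 such OE-KDM4A peaks none did, against 4.39% of all acrocentric OE-KDM4A peaks. At that share the absence among 10 peaks shows nothing about OE-KDM4A. The strongest OE-KDM4A peak was at chr21:10692711-10693095, 42.9 kb from IGHV1OR21-1 and inside the gene-free stretch. It had a fold of 23.0 and a −log10 q of 707. NC had a peak with the same summit, with a fold of 2.66 and a −log10 q of 107. The pileup was nearly the same, 715 in NC and 739 in OE-KDM4A, and the background was 268 and 31.1.

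The strongest NC peak was the second strongest of OE-KDM4A. It was at chr21:7926272-7926524 in NC, 69.3 kb from the uncharacterised locus LOC105379505, with a fold of 2.67 and a −log10 q of 249. In OE-KDM4A it was wider, chr21:7925831-7926646, with a fold of 6.52 and a −log10 q of 620. No whole-number pileup fitted its p-value, so only the fold is given.

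Strong OE-KDM4A peaks without an overlapping NC peak included those at FAM230C. FAM230C is the chromosome 13 member of the family printed above. Its peak at chr13:18211722-18212550 had the highest fold of all acrocentric peaks, 50.7, with a −log10 q of 493 from 369 stacked fragments over a background of 6.30. A second peak in the same gene, chr13:18213505-18213713, had a fold of 26.6. On chromosome 21, peaks at chr21:10270199-10270413 and chr21:10274025-10274239, with folds of 23.1 and 13.9, were in OE-KDM4A only. So was a peak 4.20 kb from the non-coding RNA gene LINC01666, at chr21:8810160-8810417, with a fold of 11.8. On chromosome 15 the strongest of this kind was at chr15:17080537-17080656, 2803 kb from the nearest gene, with a fold of 13.5.

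Of the NC peaks without an overlapping OE-KDM4A peak, the 10 strongest included 7 in 45S units, while 13 of all 66 such peaks lay there. The other 3 were chr22:11703023-11703148, with a fold of 4.72, and chr15:19497291-19497424 and chr15:18710872-18711044, with folds of 12.7 and 12.4. The chromosome 15 peaks each had 22 stacked fragments, over backgrounds of 0.81 and 0.85.

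Overlap between the lists was partial. Of the 95 NC peaks 29 overlapped an OE-KDM4A peak by at least 1 bp (30.5%, 21.5 to 40.8), while 34.7% of all NC peaks did. Of the 228 OE-KDM4A peaks 29 overlapped an NC peak (12.7%, 8.69 to 17.8), while 10.2% of all OE-KDM4A peaks did. Both shares are thus close to those of the whole lists. On the rest of the same chromosomes the shares were lower, 9.09% of NC peaks (4.45 to 16.1) and 4.69% of OE-KDM4A peaks (2.27 to 8.46). Around the gene-free stretches of chromosomes 1, 9 and 16 they were higher, 78.6% (68.3 to 86.8) and 26.8% (21.1 to 33.0). The interval of the NC share did not overlap those of either comparison set, and no test of the difference was run. Chromosome 21 had 16 of the shared regions, chromosome 22 had 10 and chromosome 15 had 3, and chromosomes 13 and 14 had none.

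Shared peaks were the stronger ones. Their median −log10 q was 17.6 in NC and 14.8 in OE-KDM4A, and it was 3.94 and 4.45 for peaks found in that list only. Their median fold was 3.46 in NC, below the 4.01 of the peaks in NC only, and 6.23 in OE-KDM4A, above the 4.98 of the peaks in OE-KDM4A only. Only 1 of the 29 shared regions lay in a gene span, that of the 28S sequence.

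**Figure D3:**
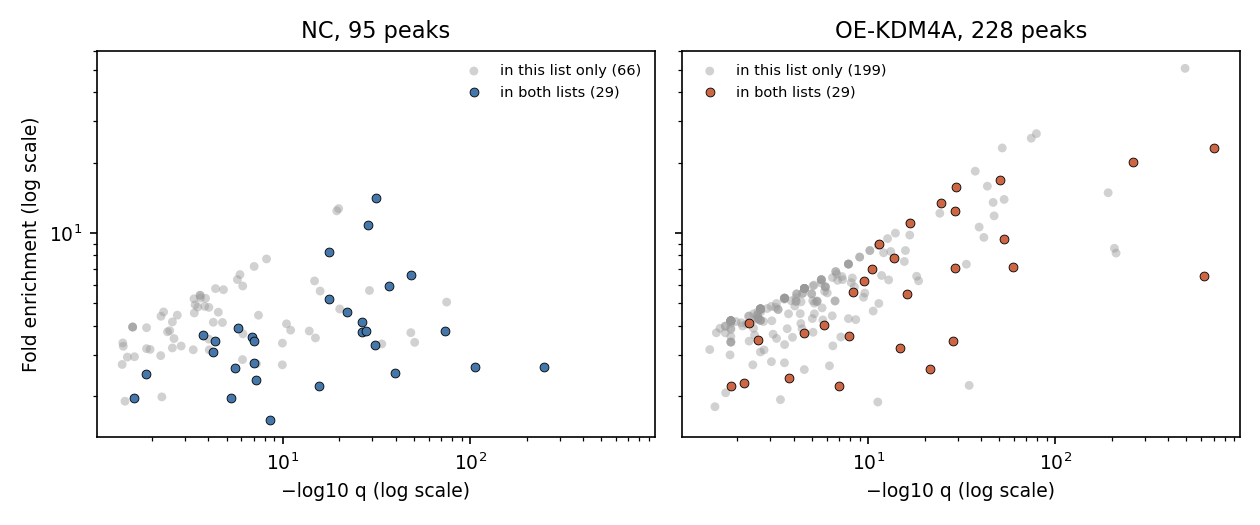
Fold enrichment against −log10 q (both on log scales) for each acrocentric peak of NC (left) and OE-KDM4A (right), with the peaks found in both lists coloured and those in that list only in grey. The shared peaks spread towards high −log10 q, and the highest fold, 50.7, is an OE-KDM4A peak in FAM230C.

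At the 29 shared regions the fold was higher in OE-KDM4A at 21 (72.4%, 52.8 to 87.3), against 78.7% of all 404 regions called in both lists. The median log2 ratio was 0.46, with a range from −0.55 to 3.11. The −log10 q was higher in OE-KDM4A at 16 of 29, against 75.2% of all regions. Where the values could be recovered, the ChIP pileup was lower in OE-KDM4A at 24 of 28 acrocentric regions, against 50.3% of all. The control background was lower at 28 of 28, against 80.4% of all. The median ratio of OE-KDM4A to NC was 0.66 for the pileup and 0.32 for the background, while over all regions it was 0.99 and 0.42.

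Outside the 45S units the pileup was lower in OE-KDM4A at 17 of 21 regions, with a median ratio of 0.72. The fold was higher at 18 of these 22 regions. So the acrocentric regions had higher folds in OE-KDM4A together with lower pileups, and the background differed by more than the pileup. At the median, the background of the shared regions was 17.2 in NC and 6.34 in OE-KDM4A, and the pileup was 65 and 36. The part of the input libraries in these folds was not tested.

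Besides the strongest OE-KDM4A peak, a pair of shared regions had more stacked fragments in OE-KDM4A than in NC. One was at chr22:18730461-18730709, 3.23 kb before FAM230E, where the pileup was 157 in NC and 285 in OE-KDM4A and the fold 3.30 and 20.1. The other was at chr22:10722692-10723156, where the pileup was 39 and 61 and the fold 3.43 and 7.06. The peak on the FAM230E start window printed above lies between the former and the gene and was in OE-KDM4A only, with 64 stacked fragments over a background of 1.56.

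Shared regions next to LINC01666 and LOC105379516, both non-coding RNA loci, had higher folds and lower pileups in OE-KDM4A. At chr21:8807036-8807177, 1.08 kb from LINC01666, the fold was 4.17 in NC and 16.8 in OE-KDM4A, with pileups of 99 and 55. At chr22:12175800-12175937, 8.63 kb from LOC105379516, the fold was 2.22 and 7.15, with pileups of 172 and 123. Beside it, at chr22:12176173-12176481, the fold was 1.58 and 2.61, with pileups of 290 and 160. At chr22:11817714-11817929 the fold was 1.96 and 5.47, with pileups of 98 and 44. The region at chr21:9246733-9246859 had the same pileup, 80, in both, and folds of 2.34 and 3.22.

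The 3 shared regions of chromosome 15 had high folds in both lists. At chr15:18857135-18857301 the fold was 14.1 in NC and 15.7 in OE-KDM4A, at chr15:19489594-19489734 it was 8.29 and 11.02, and at chr15:19400709-19400907 it was 10.8 and 8.92. They lie in the part of chromosome 15 before its first listed gene, and their pileups were 37, 32 and 42 in NC and 29, 20 and 16 in OE-KDM4A. The 10 shared regions not named so far had folds of 1.96 to 3.90 in NC, while OE-KDM4A ranged from 2.20 to 9.42.

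**Figure D4:**
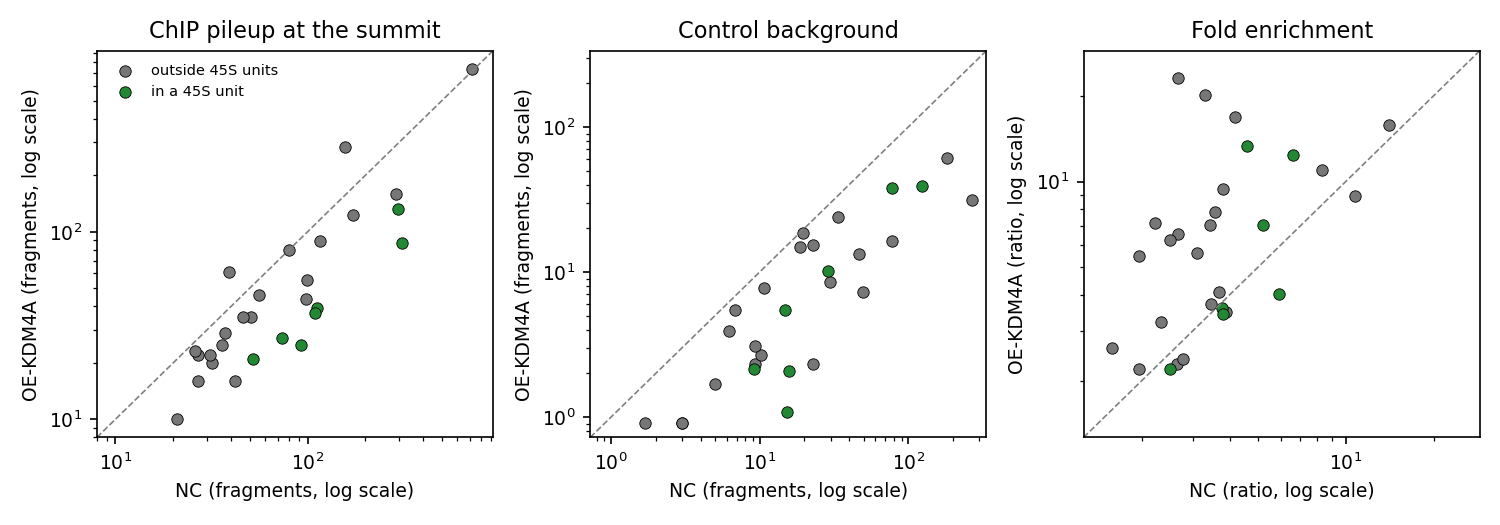
Values of NC (horizontal) and OE-KDM4A (vertical) at the acrocentric regions called in both lists, on log scales. The panels show the ChIP pileup at the summit, the control background and the fold enrichment, with regions in a 45S unit in green and the dashed line marking equal values. All 7 green points lie below the line for pileup and background, and 21 of 29 points lie above it for fold.

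The 2 lists often had peaks near each other without overlap. Peaks no more than 50 kb apart were joined into 71 clusters, of which 28 held peaks of both lists, 16 only NC peaks and 27 only OE-KDM4A peaks. The clusters with both lists held 76.8% of the NC peaks and 77.2% of the OE-KDM4A peaks. No such share is given over all peaks, so these values show nothing particular to the acrocentric peaks. The cluster with most OE-KDM4A peaks, 19 beside 2 NC peaks, ran from 10631440 to 10798256 on chromosome 21, around IGHV1OR21-1. Next came one with 18 OE-KDM4A and 6 NC peaks at the non-coding RNA LOC101930100. There were 17 OE-KDM4A peaks both in the cluster of LOC124905166 and LOC105379418 on chromosome 22, beside 7 NC peaks, and in that of TEKT4P2, a tektin pseudogene, beside 2. A chromosome 21 cluster without a gene, from 7917090 to 7959671, held 16 and 4. At EIF3FP1, VN1R7P and BAGE2 there were 15 OE-KDM4A and 2 NC peaks. The cluster of RNA45SN3 and RNA45SN1, with 15 NC and 10 OE-KDM4A peaks, was the one with the most NC peaks. The 5 NC peaks of RNA45SN2 had no OE-KDM4A peak within 50 kb.

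**Figure D5:**
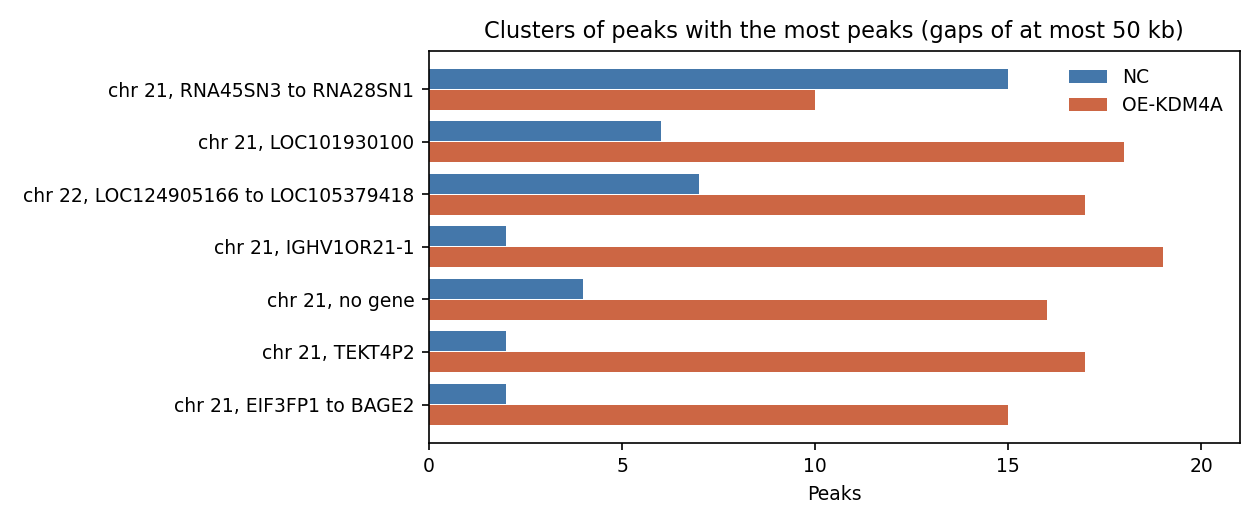
Number of NC and OE-KDM4A peaks (horizontal) in the 7 clusters with the most peaks, named by chromosome and the genes they span. The cluster of the 45S genes is the one in which the NC bar is longer.

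Few acrocentric peaks lay in genes. A gene span was overlapped by 24 of 95 NC peaks (25.3%, 16.9 to 35.2) and by 36 of 228 OE-KDM4A peaks (15.8%, 11.3 to 21.2). Over the whole lists the shares were 40.0% and 39.6%, and on the rest of the same chromosomes they were 67.3% and 60.1%. Of 1012 genes below 22 Mb, 17 had an NC peak in their span and 26 an OE-KDM4A peak, and 4 had both. Of all 59003 genes, 0.832% had an NC peak, 2.29% an OE-KDM4A peak and 0.169% both. A summit within 1 kb of a listed start was found for 1 NC peak, 689 bp from that of GP1BB, against 5.84% of the whole list. In OE-KDM4A it was found for 2 peaks, 195 bp from a start of FAM230E and 287 bp from one of FAM230F, against 1.64% of the whole list.

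The duplicated gene families of these chromosomes were listed by name, from knowledge of where they lie, so their share is set in part by the list. Within 5 kb of such a gene lay 9 NC peaks (9.47%, 4.42 to 17.2) and 19 OE-KDM4A peaks (8.33%, 5.09 to 12.7). In the whole lists 1.37% and 0.766% of peaks lay as near. Of the 37 families with a gene below 22 Mb, 5 had an NC peak and 8 an OE-KDM4A peak, and 3 had both. Of their 195 genes, 7 had an NC peak within 5 kb, 11 an OE-KDM4A peak and 3 both. The 48 olfactory receptor genes, the 8 POTE genes and the 10 orphan immunoglobulin segments had no peak in either list within that distance. Of all 1012 genes below 22 Mb, 37 had an NC peak within 5 kb, 41 an OE-KDM4A peak and 10 both. At these shares the lack of peaks in those groups shows nothing about them.

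Per family the numbers were small, from 1 to 5 peaks in a list, and no difference between the lists was tested. CDC27 pseudogenes, copies of a gene of the anaphase-promoting complex, had 4 NC peaks at CDC27P9, CDC27P10 and CDC27P11, which lie in the 45S spacers of chromosome 21, and 1 OE-KDM4A peak, at CDC27P11. FAM230 had 1 NC peak, at FAM230E, and 5 OE-KDM4A peaks, at FAM230C, FAM230E and FAM230F. The peak in FAM230F, at chr22:18896281-18896586, had a fold of 9.56. EIF3FP1 and EIF3FP2, pseudogenes of a translation initiation factor subunit, had 4 peaks in OE-KDM4A only, the strongest with a fold of 50.7 being that in FAM230C. HERC2P3, a pseudogene of the ubiquitin ligase HERC2 on chromosome 15, had 3 OE-KDM4A peaks with folds of up to 6.30, and TEKT4P2 had 3 with folds of up to 6.57. BAGE2, of the B melanoma antigen family, had 2 peaks in each list, with folds of up to 3.77 in NC and 5.87 in OE-KDM4A. FRG1FP and GAB4 had 1 peak each in NC only, and GGT3P and TPTE2 1 each in OE-KDM4A only.

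Some protein-coding genes had a peak. NC peaks lay in 4 of the 210 coding genes below 22 Mb, which is near the share of all coding genes with one, 1.94%. These were CRYL1 on chromosome 13 and GAB4, TMEM121B and GP1BB on chromosome 22. Their folds ran from 4.91 at GP1BB, a subunit of the platelet von Willebrand factor receptor, to 6.31 at TMEM121B. The peak in TMEM121B was also within 5 kb of IL17RA, the receptor of interleukin 17, and that in GP1BB within 5 kb of SEPTIN5, a septin of the cytoskeleton. OE-KDM4A peaks lay in 6 coding genes, where 4.69% of all coding genes had one. These were TPTE2, EEF1AKMT1, a lysine methyltransferase of a translation elongation factor, ZDHHC20, a palmitoyltransferase, and MICU2, a regulator of the mitochondrial calcium uniporter, all on chromosome 13, and SAMSN1 on chromosome 21 and GNB1L on chromosome 22. Their folds ran from 4.20 at TPTE2 and EEF1AKMT1 to 5.48 at SAMSN1, and their −log10 q from 1.85 to 5.16. The peak in ZDHHC20 was also within 5 kb of LOC124903130. None of the 210 had a peak of both lists, which 0.402% of all coding genes had, so at these numbers the lack of overlap shows nothing about them.

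The lists also differed in the background under their peaks. The lowest control background of its list was found under 4 of 95 acrocentric NC peaks (4.21%, 1.16 to 10.4) and under 61 of 228 OE-KDM4A peaks (26.8%, 21.1 to 33.0), against 8.24% and 49.2% of the whole lists. That lowest value was 0.811 in NC and 0.905 in OE-KDM4A. Several NC peaks lay just above it, at 0.852, and were not counted, so these shares cannot be compared between the lists. The median background was 5.84 in NC and 1.56 in OE-KDM4A, and the median pileup was 26.5 and 14. In both lists, acrocentric peaks thus lay on higher background than the peaks of the whole list, where the medians were 1.28 and 0.92. The median fold was 3.81 in NC (all NC peaks 4.39) and 5.03 in OE-KDM4A (all 5.20). Peaks were about equally wide, with a median of 157 bp in NC and of 157.5 bp in OE-KDM4A. Together they covered 17571 bp and 43792 bp.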

How the data were processed

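H3K9me3 ChIP-seq peak lists of 2 libraries were used, 1 per condition, and the input libraries were not analysed by themselves. The submitters' processing notes name Trimmomatic, Bowtie 1.1.2, MACS2 2.1.0 and hg38. The deposited fold enrichment is a linear ratio at the summit, the deposited −log10 p and −log10 q are the authors', and the deposited score is 10 times the −log10 q. Of identical intervals the line of highest −log10 q was kept (107 lines gave 95 peaks in NC, 252 gave 228 in OE-KDM4A).

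Pileup and background were recovered from the known formulas of MACS2, fold = (pileup + 1) / (background + 1) and a Poisson p, for 94 NC and 227 OE-KDM4A peaks where a whole number gave the deposited −log10 p within 0.001. A background within 0.1% of the lowest counted as lowest. A shared region pairs an NC peak with the OE-KDM4A peak over it, the one of highest −log10 q if several.

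Genes are RefSeq spans (GRCh38.p14) without exons, and rows on other sequences were left out (59003 of 59792 kept). Shares have Clopper-Pearson intervals. The members and lists were chosen with earlier results of these data known, and the 45S unit, clusters, pileups and start distances after seeing the files. Named are the 10 strongest peaks per list and in that list only, peaks within 5 kb of a 45S gene, the 20 strongest shared regions, family and coding genes with a peak, and the 5 fullest windows, except 1 locus that is not reported here. Alternatives were limits on q and fold, other overlaps, distances and borders, and each chromosome left out. The steps were tested on simulated data. Versions were Python 3.11.15, matplotlib 3.10.9, scipy 1.17.1, pandas 2.3.3, numpy 2.4.6 and edlib 1.3.9.post1.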

Additional observations from a re-analysis of the deposited data

How the results depend on the processing

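Of 65 alternative values for 14 results, 40 stayed within the 95% interval of the reported value. The ratio of acrocentric peak numbers was 1.83 with a −log10 q of at least 10, 4.75 with a fold of at least 5 and 0.94 with the OE-KDM4A list shortened to the NC length. When −log10 q had to reach 5 and then 10, the acrocentric share of the OE-KDM4A list was 7.82% and 6.93%, and the median OE-KDM4A fold 6.51 and 8.83. The share of NC peaks that overlap the other list was 41.1% within 5 kb, 42.9% and 43.3% at those limits on q, and 20.8% with a fold of at least 5. For OE-KDM4A peaks it was 33.3%, 19.4%, 23.6% and 4.39%. The share at 45S genes was 21.1% of NC and 4.39% of OE-KDM4A peaks within 50 kb, and the same by 45S unit, an alternative chosen after seeing the data. At the higher limit on q it was 13.3% and 0%. With 5 kb at both ends, 35.8% and 25.9% of peaks lay at genes, and with 20 kb, 30.5% and 21.9% lay at duplicated families. Leaving out each chromosome in turn moved no ratio or overlap share out of its interval. No paired analysis was possible because each condition has 1 ChIP library.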

Other observations

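The loci named next lie outside the families and were picked with their values known. The double homeobox pseudogenes DUX4L42, DUX4L43 and DUX4L44 on chromosome 22 each had an NC peak in their span, with folds from 1.90 to 3.95, and no OE-KDM4A peak within 5 kb. These peaks were weak, with a −log10 q from 1.43 to 1.87, below the median of 3.94 of acrocentric peaks in NC only. DUX4L41 on chromosome 22 and DUX4L48 on chromosome 14 had no peak of either list within 5 kb. On chromosome 15, RHPN2P1, a rhophilin pseudogene, had 3 NC peaks in its span and no OE-KDM4A peak. LOC101928041, a pseudogene on chromosome 22, had 4 OE-KDM4A peaks in its span and no NC peak, and LINC01667, a long non-coding RNA gene on chromosome 21, likewise had 4, with folds of up to 6.28. The 1 chromosome 14 peak, in NC, lay within 5 kb of the transfer RNA genes TRP-TGG1-1 and TRT-TGT4-1, with a fold of 5.22. Of all genes below 22 Mb, 37 had an NC peak within 5 kb, 41 an OE-KDM4A peak and 10 both. A gene with peaks of a single list was thus the common case, and these loci show no difference between the conditions.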
